A study of Bos taurus with 8 samples.

Results

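Bta-miR-223, bta-miR-142-5p, bta-miR-142-3p and bta-miR-150 are miRNAs of white blood cells, and they were followed here in rumen fluid of cattle. They were chosen by name from the miRNA tables of 8 libraries, as markers of myeloid cells, of all leukocytes and of lymphocytes. All 4 were found. They were 4 of the 377 miRNA entries (268 of them bovine) that reached 10 reads in at least 1 library, out of 565 entries listed. Rumen fluid of the same 4 non-lactating, ruminally cannulated Holstein cows was sampled on 2 diets. The forage samples were taken on day 7 of a diet without concentrate (0% of dry matter), and the high-grain (HG) samples on day 1 at 65% concentrate, reached stepwise from forage. Sampling took place 4 h after feeding in both cases, and every sample gave 1 small RNA library, 4 per diet. The cows were the control animals of a parallel trial, and since HG always followed forage, diet and time of sampling cannot be told apart. Libraries with the same replicate number were taken as 1 cow, as the labels number them.

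A miRNA is cut from a hairpin precursor, and either side of the hairpin (the 5p and the 3p arm) can be loaded into an Argonaute protein and guide it to target mRNAs. MiR-223 is a miRNA of the myeloid lineage, abundant in neutrophils and monocytes, where it restrains granulocyte maturation and inflammatory signaling. MiR-150 marks mature B, T and natural killer cells and targets the transcription factor Myb. MiR-142 is made in nearly all blood-forming lineages, and both of its arms are functional. MiR-451, the miRNA of red blood cells, served as the reference for blood. In a fluid without sorted cells, fewer cells of a type and less RNA per cell cannot be told apart.

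The loci were given by the deposited tables on the genome build UMD3.1, all on the minus strand. Bta-miR-142-5p was listed at chr19:9527320-9527339 (20 nt) and bta-miR-142-3p at chr19:9527359-9527380 (22 nt) of the same hairpin. Bta-miR-150 was listed at chr18:56407863-56407885 (23 nt) and bta-miR-223 at chrX:99936370-99936391 (22 nt). The 5p arm of miR-142 lay at the lower coordinates although the strand was minus, and the same held for 9 of 9 minus-strand hairpins with both arms listed at 1 locus, so the coordinates of a single arm on that strand are uncertain. In the RefSeq annotation of the assembly ARS-UCD2.0, MIR142 lies within TSPOAP1 and next to MPO, the myeloperoxidase gene of granulocytes. MIR223 lies within VSIG4, a gene of macrophages, between HEPH and MSN. Both hairpins also lie within genes of long noncoding RNAs, LOC132342998 for MIR142 and LOC132344326 for MIR223. MIR150 lies in no gene.

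The libraries held 300116 to 522804 miRNA reads, which made up 6.67% to 29.3% of all reads. HG replicate 2 stood apart from the other 7 libraries in these miRNAs, so values are given with and without it. Of the 12 pairs of libraries of 1 diet, 4 did not differ beyond counting noise (chi-square p over 0.05 across 78 entries). They were kept as separate libraries because miRNA reads made up percentages at least 1.69-fold apart in them. These percentages also depend on the other reads, and cannot show that the miRNA reads of such libraries are independent. Each cow gave 1 library per diet, so differences between cows and technical error cannot be told apart.

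Bta-miR-142-5p, the leading arm of the pan-leukocyte hairpin, was the most abundant of the 4. It held 5534, 5812, 5182 and 3813 reads in forage replicates 1 to 4, and 3344, 2851, 4333 and 4307 reads in HG replicates 1 to 4. Relative to the miRNA reads of each library this was 1.12%, 1.11%, 1.14% and 1.15% on forage and 1.11%, 0.848%, 1.11% and 1.11% on HG. In 7 of the 8 libraries the share thus lay between 1.11% and 1.15%, and HG replicate 2 was the low one, with a 95% Wilson interval of 0.818% to 0.880% (counting error only, as for all intervals here). The mean was 1.13% ± 0.0167 (SD, n = 4) on forage and 1.05% ± 0.131 (SD, n = 4) on HG, or 1.11% ± 0.00287 (SD, n = 3) without that library. With 35176 reads in all, it ranked 18th among bovine miRNAs by total reads.

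Bta-miR-150, the lymphocyte miRNA, held 2984, 3086, 2660 and 1940 reads on forage and 1810, 1596, 2292 and 2210 reads on HG. Its share of miRNA reads was 0.604%, 0.590%, 0.583% and 0.585% on forage and 0.603%, 0.475%, 0.587% and 0.569% on HG. The diets overlapped, and HG replicate 2 was again the lowest, with an interval of 0.452% to 0.499%. The mean share was 0.590% ± 0.00941 (SD, n = 4) on forage and 0.558% ± 0.0575 (SD, n = 4) on HG, or 0.586% ± 0.0168 (SD, n = 3) without HG replicate 2.

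Bta-miR-223, the myeloid miRNA, held 1703, 1955, 1615 and 1142 reads on forage and 1031, 845, 1445 and 1339 reads on HG. Its share of miRNA reads was 0.345%, 0.374%, 0.354% and 0.344% on forage and 0.344%, 0.251%, 0.370% and 0.345% on HG. The highest share of each diet, in forage replicate 2 and HG replicate 3, lay close together, and HG replicate 2 lay below all others (interval 0.235% to 0.269%). The mean share was 0.354% ± 0.0139 (SD, n = 4) on forage and 0.327% ± 0.0521 (SD, n = 4) on HG, or 0.353% ± 0.0147 (SD, n = 3) without HG replicate 2.

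Bta-miR-142-3p, the minor arm, held 482, 569, 469 and 341 reads on forage and 290, 416, 432 and 402 reads on HG. Its share of miRNA reads was 0.0975%, 0.109%, 0.103% and 0.103% on forage and 0.0966%, 0.124%, 0.111% and 0.104% on HG. Here HG replicate 2 was the highest library and not the lowest, although its interval (0.112% to 0.136%) overlapped those of other libraries. The mean share was 0.103% ± 0.00462 (SD, n = 4) on forage and 0.109% ± 0.0116 (SD, n = 4) on HG, or 0.104% ± 0.00696 (SD, n = 3) without that library.

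**Figure D1:**
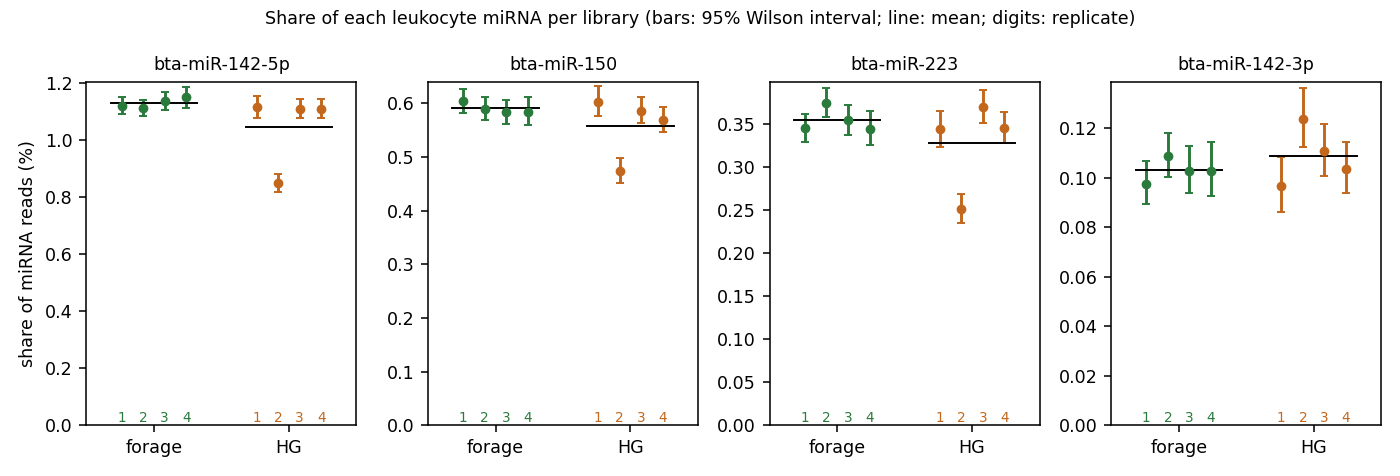
Share of miRNA reads (%, vertical axis from 0) of the 4 leukocyte miRNAs in each library of the forage and HG diets, with 95% Wilson intervals, replicate numbers along the bottom and the diet mean as a line. HG replicate 2 is the lowest library for bta-miR-142-5p (0.848%), bta-miR-150 (0.475%) and bta-miR-223 (0.251%) and the highest for bta-miR-142-3p (0.124%).

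Together the 4 made up 2.17%, 2.18%, 2.18% and 2.18% of miRNA reads on forage and 2.16%, 1.70%, 2.18% and 2.13% on HG. The mean of this sum was 2.18% ± 0.00807 (SD, n = 4) on forage and 2.04% ± 0.229 (SD, n = 4) on HG, or 2.15% ± 0.0242 (SD, n = 3) without HG replicate 2. With reads shared between entries divided among them and the same total of miRNA reads below, the sum was 1.27% ± 0.0101 on forage and 1.18% ± 0.140 on HG (SD, n = 4 each). Relative to all reads of a library, the 4 varied far more, by 4.49-fold between the lowest and highest library for bta-miR-142-5p and 4.74-fold for bta-miR-223. The same ratios of highest to lowest were 1.35 and 1.49 on the scale of miRNA reads. Over the 7 libraries without HG replicate 2, the coefficient of variation of the share was 1.37% for bta-miR-142-5p, 2.04% for bta-miR-150 and 5.02% for bta-miR-142-3p, where counting alone would give 1.498%, 2.07% and 4.95%. For bta-miR-223 the coefficient was 3.69% against 2.67% from counting. With HG replicate 2 included, the coefficients were 8.98% for bta-miR-142-5p, 7.27% for bta-miR-150, 11.2% for bta-miR-223 and 8.22% for bta-miR-142-3p, each above the 1.55%, 2.13%, 2.78% and 4.94% of counting.

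The order of the 4 by reads was the same in 8 of 8 libraries, with bta-miR-142-5p first, then bta-miR-150, bta-miR-223 and bta-miR-142-3p. Bta-miR-142-5p held 1.79 to 1.97 reads per read of bta-miR-150, a log2 ratio of 0.92 ± 0.05 (SD, n = 8). Bta-miR-150 held 1.58 to 1.89 reads per read of bta-miR-223, a log2 ratio of 0.76 ± 0.09 (SD, n = 8). Bta-miR-223 held 2.03 to 3.56 reads per read of bta-miR-142-3p, a log2 ratio of 1.68 ± 0.27 (SD, n = 8). Each gap was wider than the spread between libraries.

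The place of the myeloid relative to the lymphoid miRNA, however, depended on how shared reads were counted. In the counts above, every entry that a read matches receives the whole read. The second deposited count splits the read evenly over those entries, and there the order was bta-miR-142-5p, bta-miR-223, bta-miR-150 and bta-miR-142-3p in 8 of 8 libraries. The division halved bta-miR-150 and both arms of miR-142 (the divided count was 0.5 of the reads in all libraries) but left bta-miR-223 whole (1.0). All 18578 reads of bta-miR-150 were also listed at the human entry hsa-miR-150-5p, so the same reads stood under the bovine and the human name of miR-150. The swap of bta-miR-150 with bta-miR-223 followed from this listing. No second entry with the reads of a miR-142 arm or of bta-miR-223 was listed. The listed entries thus do not account for the division of the miR-142 arms. On divided reads bta-miR-223 held 1.06 to 1.27 reads per read of bta-miR-150, a log2 ratio of 0.24 ± 0.09 (SD, n = 8). The deposited normalized values had the order of the divided reads in 8 of 8 libraries, with means on forage of 1390 ± 66.9 (SD, n = 4) for bta-miR-223 and 1158 ± 14.6 (SD, n = 4) for bta-miR-150. Adapter ligation recovers miRNAs with unequal efficiency, so either order is one of reads and not of molecules.

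**Figure D2:**
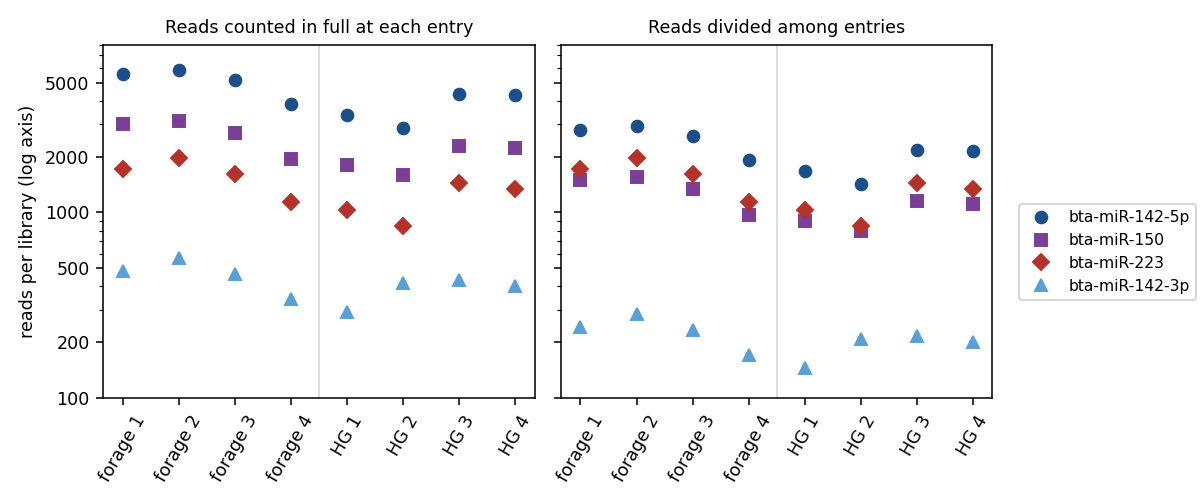
Reads of the 4 leukocyte miRNAs per library (log axis), counted in full at each entry on the left and divided among entries on the right, for the forage and HG libraries. Bta-miR-150 (squares) lies above bta-miR-223 (diamonds) in 8 of 8 libraries on the left and below it in 8 of 8 on the right.

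The question of diet was asked first for each miRNA, with a model of cow and diet fitted across the 377 entries with edgeR's quasi-likelihood test. None of the 4 passed the threshold of 0.05. Bta-miR-142-5p differed between HG and forage by a log2 fold change of -0.071 (SE 0.048, edgeR adjusted p = 0.788). The log2 fold change was -0.036 for bta-miR-150 (SE 0.047, edgeR adjusted p = 0.830) and -0.077 for bta-miR-223 (SE 0.087, edgeR adjusted p = 0.830). For bta-miR-142-3p it was 0.12 (SE 0.089, edgeR adjusted p = 0.788). The background was 0 of 377 entries called (0.0%), with 9 entries at an unadjusted p under 0.05, so this held for every entry tested. DESeq2 called 0 entries as well, with 3 at an unadjusted p under 0.05. Without both libraries of replicate 2, edgeR called 2 entries, neither of them a leukocyte miRNA, and the log2 fold change of bta-miR-223 turned to 0.023 (SE 0.031). With HG replicate 2 alone left out, in a fit without the cow block, it was -0.014 (SE 0.042), and that of bta-miR-142-3p was 0.0046 (SE 0.067). In the fit without both libraries of replicate 2, the other log2 fold changes were closer to 0, at -0.030 (SE 0.019) for bta-miR-142-5p, -0.0092 (SE 0.023) for bta-miR-150 and 0.038 (SE 0.057) for bta-miR-142-3p.

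On TMM-scaled counts (CPM, counts relative to the scaled library total), none of the 4 moved the same way in all cows. Bta-miR-142-5p and bta-miR-150 were lower on HG in 3 of 4 cows, and bta-miR-223 and bta-miR-142-3p were higher in 3 of 4. Of all entries, 26 of 377 (6.9%) were lower on HG in 4 of 4 cows and 32 (8.49%) were higher in 4 of 4. Over the 4 leukocyte miRNAs the median log2 fold change was -0.054, beside 0.026 over all entries.

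The myeloid to lymphoid balance was then taken inside each library, as the ratio of bta-miR-223 to bta-miR-150 reads, which needs no scaling between libraries. It was 0.571, 0.634, 0.607 and 0.589 on forage and 0.570, 0.529, 0.630 and 0.606 on HG. The ranges overlapped, and HG replicate 2 had the lowest ratio. The mean log2 ratio was -0.74 ± 0.06 (SD, n = 4) on forage and -0.78 ± 0.11 (SD, n = 4) on HG. The difference within cows was -0.041 ± 0.15 (SD, n = 4; from -0.26 to 0.05), with p = 0.875 in a two-sided exact permutation test and an adjusted p of 1.0 over 5 ratios. With 4 cows this test cannot go below 0.125. Without replicate 2 the difference was 0.031 ± 0.030 (SD, n = 3).

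The 5p arm of miR-142 outnumbered the 3p arm in 8 of 8 libraries. The ratio of 5p to 3p reads was 11.5, 10.2, 11.05 and 11.2 on forage and 11.5, 6.85, 10.03 and 10.7 on HG. In HG replicate 2 both ends of the ratio had moved, since its 5p share was the lowest and its 3p share the highest of the 8 libraries. The mean ratio was 10.98 ± 0.543 (SD, n = 4) on forage and 9.78 ± 2.05 (SD, n = 4) on HG, or 10.8 ± 0.751 (SD, n = 3) without that library. The difference of the log2 ratio within cows was -0.19 ± 0.26 (SD, n = 4), lower on HG in 3 of 4 cows (exact permutation p = 0.25, adjusted p = 0.625). It was -0.065 ± 0.073 (SD, n = 3) without replicate 2.

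Each lineage miRNA was also taken relative to the pan-leukocyte hairpin. Bta-miR-223 held 0.283, 0.306, 0.286 and 0.275 reads per miR-142 read (both arms) on forage and 0.284, 0.259, 0.303 and 0.284 on HG. On divided reads, where miR-142 loses reads and bta-miR-223 does not, the mean ratio was 0.575 ± 0.0268 on forage and 0.565 ± 0.0366 on HG (SD, n = 4 each). The log2 difference within cows was -0.027 ± 0.15 (SD, n = 4; exact permutation p = 1.0, adjusted p = 1.0), and without replicate 2 it was 0.046 ± 0.041 (SD, n = 3). Bta-miR-150 held 0.496, 0.484, 0.471 and 0.467 reads per miR-142 read on forage and 0.498, 0.489, 0.481 and 0.469 on HG. The diets overlapped, but the ratio was higher on HG in 4 of 4 cows, by 0.015 ± 0.012 on the log2 scale (SD, n = 4; exact permutation p = 0.125, the smallest this test can give, adjusted p = 0.625). In single cows these differences ran from 0.0060 to 0.031 on the log2 scale. Counting alone gives the share of bta-miR-150 within a library a coefficient of variation of 2.13%. Differences of this size between libraries thus lie within counting error. HG replicate 2 did not stand out in the ratio of bta-miR-150 to miR-142.

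**Figure D3:**
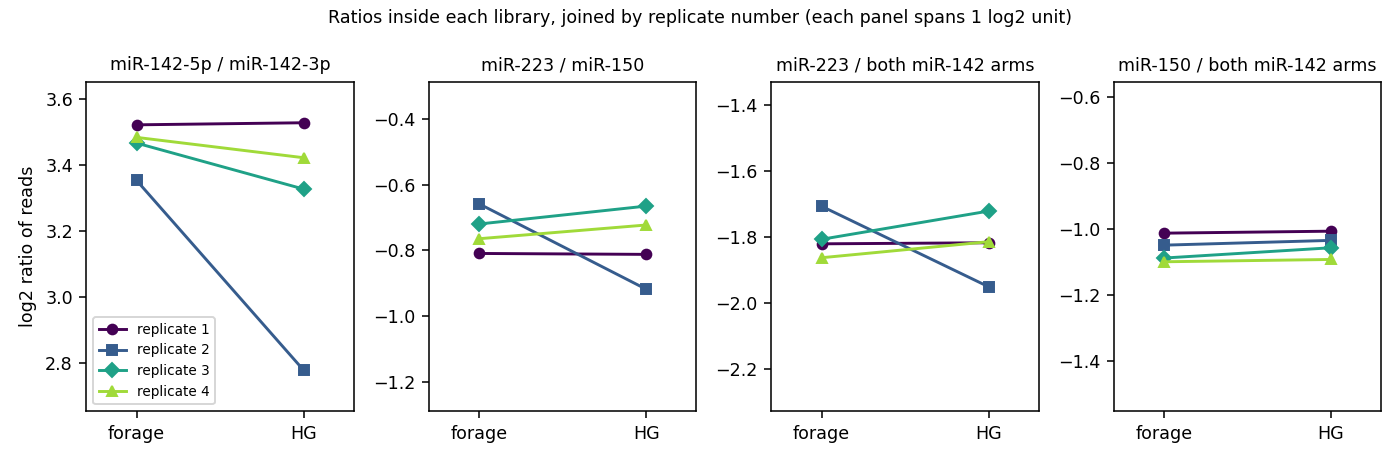
Log2 ratios of reads inside each library on forage and HG, with lines joining libraries of the same replicate number and every panel spanning the same height. The line of replicate 2 falls from 3.35 to 2.78 for the arms of miR-142 and from -0.66 to -0.92 for miR-223 to miR-150, and the 4 lines for miR-150 to miR-142 are nearly level.

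Relative to red blood cell RNA the leukocyte miRNAs kept a narrow range. The 4 together held 0.127, 0.126, 0.128 and 0.128 reads per bta-miR-451 read on forage and 0.130, 0.134, 0.129 and 0.126 on HG. HG replicate 2 had the highest of these ratios, so its low sum of leukocyte miRNAs went with low bta-miR-451. The log2 difference within cows was 0.031 ± 0.049 (SD, n = 4; exact permutation p = 0.375, adjusted p = 0.625), and 0.010 ± 0.031 (SD, n = 3) without replicate 2. In tests without the pairing by cow, exact permutation p-values of the 5 ratios were 0.143 to 0.686, and 0.0286 is the smallest that 70 arrangements can give.

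Other miRNAs used as leukocyte markers were given by a list of 6, all detected and none called for diet. Their edgeR log2 fold changes had a median of 0.076, 4 above and 2 below 0. Bta-miR-342, of lymphoid and monocytic cells, made up 0.199% ± 0.00929 of miRNA reads on forage and 0.191% ± 0.0158 on HG (SD, n = 4 each), with a log2 fold change of -0.013 (SE 0.065, edgeR adjusted p = 0.930). Bta-miR-155, induced in activated lymphocytes and macrophages, made up 0.0327% ± 0.00170 and 0.0295% ± 0.00526 (SD, n = 4 each), with a log2 fold change of -0.12 (SE 0.11, edgeR adjusted p = 0.798). Bta-miR-146a, a brake on Toll-like receptor signaling, had a log2 fold change of 0.14 (SE 0.19, edgeR adjusted p = 0.830).

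**Figure D4:**
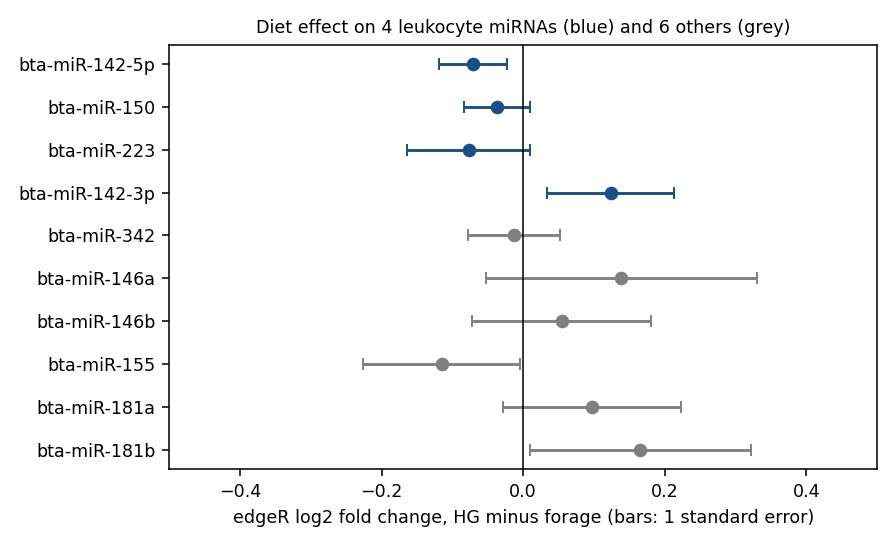
EdgeR log2 fold changes between HG and forage with 1 standard error for the 4 leukocyte miRNAs (blue) and 6 other leukocyte markers (grey). The 10 values lie between -0.12 (bta-miR-155) and 0.17 (bta-miR-181b), and none has an adjusted p under 0.05.

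HG replicate 2 was then compared with the mean of the other 7 libraries, as a description with no test. Its shares of miRNA reads were 0.756 of that mean for bta-miR-142-5p, 0.806 for bta-miR-150 and 0.711 for bta-miR-223, each below all 7 libraries. For bta-miR-142-3p the share was 1.20 of that mean and above all 7. After TMM scaling the log2 differences shrank to -0.20, -0.10 and -0.29 for the first 3 and came to 0.47 for bta-miR-142-3p. Of all entries, many of them with few reads, 35.8%, 42.4% and 30.5% were lower than the first 3 and 75.6% were lower than bta-miR-142-3p.

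**Figure D5:**
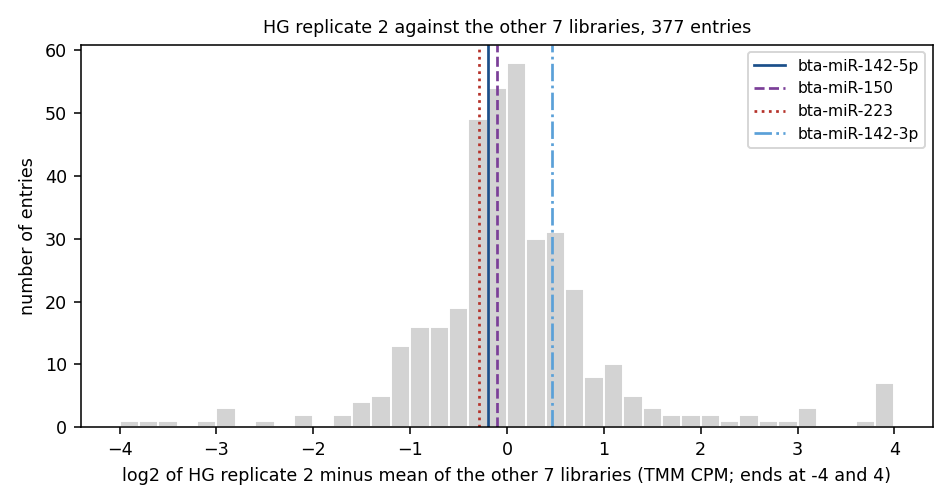
Number of the 377 entries by their log2 difference between HG replicate 2 and the mean of the other 7 libraries (TMM-scaled CPM, values beyond -4 and 4 drawn at the ends). The lines of bta-miR-223 (-0.29), bta-miR-142-5p (-0.20) and bta-miR-150 (-0.10) lie left of 0 and that of bta-miR-142-3p (0.47) lies right of it.

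Marker lists of other cells moved in the same library. The 3 erythrocyte miRNAs made up 14.98% of miRNA reads in HG replicate 2, beside 19.8% to 20.6% in the other 7 libraries. The epithelial list (7 of 8 members detected, bta-miR-203 not) made up 3.12% beside 2.21% to 2.28%, and 7 of 7 were above the mean of the 7 libraries after scaling, beside 189 of all 377 entries. Stroma and smooth muscle (9 of 9 detected) came to 9.46% beside 6.87% to 7.40%, with 8 of 9 above that mean, and the 2 endothelial entries to 0.767% beside 0.491% to 0.549%. The other leukocyte markers summed to 0.589% beside 0.547% to 0.572% and went both ways, with log2 differences of 0.77 for bta-miR-146a and 0.47 for bta-miR-181a but -0.35 for bta-miR-155 and -0.22 for bta-miR-146b. The part of these lists in the values of the 4 leukocyte miRNAs was not tested.

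The shift between the arms of miR-142 in that library was set beside other hairpins, in a comparison added after the shift was seen. Of 22 hairpins with both bovine arms detected, 9 had at least 20 reads of each arm in every library. The log2 ratio of 5p to 3p of miR-142 differed by -0.67 between HG replicate 2 and the mean of the other 7 libraries, where the SD of those 7 was 0.079. This was the 4th largest shift of the 9 in size, and the largest of the 9 relative to the SD of its own 7 libraries (-8.44 times, followed by 7.17 for bta-miR-199a and -5.35 for bta-let-7a). The shifts ran from -1.22 for bta-miR-6119 to 0.90 for bta-miR-199a, with a median of -0.10, and bta-let-7a shifted by -0.99. The number of distinct read sequences of bta-miR-142-3p was also lowest there, at 14 beside 16 to 26, so that each stood for 29.7 reads beside 18.1 to 25.1. For bta-miR-142-5p the distinct sequences numbered 42 in HG replicate 2 and 51 to 71 in the other libraries, with 67.9 reads each beside 65.6 to 89.3. Bta-miR-150 had 18 beside 25 to 35 distinct sequences and bta-miR-223 had 25 beside 31 to 47, and these miRNAs also had their fewest reads in that library.

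To see which miRNAs varied most like each of the 4, the root-mean-square difference of centered log2 CPM was taken to 119 bovine entries with at least 100 reads in every library. These are descriptions over 8 libraries that share 1 low library, and say nothing of shared control. Over the 8 libraries, bta-miR-142-5p was closest to bta-miR-15b (0.0179), bta-miR-451 (0.0239) and bta-miR-16b (0.0278). Bta-miR-150 was closest to bta-miR-25 (0.0161), bta-miR-93 (0.0219) and bta-miR-16a (0.0317), and bta-miR-223 to bta-miR-451 (0.0450), bta-miR-486 (0.0465) and bta-miR-191 (0.0547). Bta-miR-451 and bta-miR-486 are miRNAs of red blood cells. Bta-miR-142-3p was closest to other miRNAs, namely bta-miR-29a (0.0544), bta-miR-19b (0.0545) and bta-miR-221 (0.0720). The distance between the arms of miR-142 was 0.231, where the median distance of bta-miR-142-5p to all 119 entries was 0.133.

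Without HG replicate 2 the neighbors changed. The distance between the arms of miR-142 was then 0.0733 over 7 libraries. It lay above the median distance of bta-miR-142-5p to the 119 entries (0.0562) but below that of bta-miR-142-3p (0.0868). Bta-miR-142-3p was closest to bta-miR-223 (0.0355), followed by bta-miR-22-3p (0.0428) and bta-miR-205 (0.0480), and bta-miR-223 to bta-miR-205 (0.0309), bta-miR-142-3p and bta-miR-221 (0.0361). Bta-miR-142-5p stayed closest to bta-miR-15b (0.0149), followed by bta-miR-92a (0.0155) and bta-miR-30e-5p (0.0167). Bta-miR-150 was closest to bta-miR-486 (0.0114), bta-miR-21-5p (0.0144) and bta-miR-25 (0.0164). Distances of this size over 7 libraries are near the counting error of the shares given above.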

How the data were processed

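Small RNA of rumen fluid was sequenced in 8 libraries. The authors demultiplexed with bcl2fastq 2.20, trimmed adapters with Skewer, discarded short and low-quality reads, and ran sRNAbench with Bowtie on UMD3.1 with bovine and human miRBase entries. The deposited tables hold read counts per entry (shared reads counted in full at each), an expected count (shared reads divided among entries), RPM of all reads and a score, RPM of miRNA reads. The last 2 gave the read totals. For the miR-142 arms, whose reads were divided too, no second entry with their reads was listed. The deposited normalized signal was made by the authors from the expected counts with DESeq2 size factors.

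Entries reaching 10 reads in any library were tested with edgeR 4.0.16 (R 4.3.3; TMM; glmQLFTest; cow and diet; Benjamini-Hochberg adjusted p under 0.05). DESeq2 1.42.0, other scalings and filters, divided reads and leaving out replicates were alternatives. The fit was tested on simulated data. Ratios inside libraries were tested by exact sign flips over 4 cows (Python 3.11.15, scipy 1.17.1). Intervals are 95% Wilson intervals. The SE of an edgeR log2 fold change is its absolute value over the square root of the F statistic of the test. A pseudocount of 1 entered the HG replicate 2 differences and arm shifts. Named entries were the 4 members, their homologues, bta-miR-451, the nearest entries in pattern and marker lists; single markers, other hairpins and the calls without replicate 2 were named after their values were seen. Members and lists were chosen with earlier results of these data known. Pairing rests on the labels: deviations of same-numbered libraries correlated at -0.06 to 0.06 and of others at -0.16 to 0.21. MiRNA sequences, papillae libraries and 16S rRNA data were not analysed here.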

Additional observations from a re-analysis of the deposited data

Results flagged for a closer look

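In the HG group, the share of bta-miR-142-5p in miRNA reads was 0.848% in HG replicate 2, far below the other 3 HG libraries at 1.11%. The gap to the nearest of them was 0.980 of the whole range of the group, above Dixon's 95% critical value for 4 samples. The sum of the 4 leukocyte miRNAs was 1.70% in the same library, with a gap of 0.900 of the range. These 2 values came from 36 groups of 4 tested in this way, of which chance alone would pick about 1 in 20, and the sum contains bta-miR-142-5p and is no separate result.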

How the results depend on the processing

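Of 120 values recomputed under alternatives, 110 kept their direction and side of the threshold or, where no test applied, stayed within 1 SD. Some of this was fixed in advance. Ratio tests within cows cannot give a p under 0.125, so they could not cross 0.05. Division of reads left the log2 differences of ratios between the 4 miRNAs unchanged. Fold changes that kept their direction could still shrink, as given beside them for replicate 2. Division of shared reads lowered the sums and swapped miR-223 with miR-150: the summed share became 1.27% on forage and 1.18% on HG, and reads of bta-miR-223 per bta-miR-150 read rose from 0.592 to 1.18. Relative to bovine entries alone the forage sum was 2.16%. Without replicate 2, the 2 called entries (edgeR adjusted p = 0.0281) were bta-miR-2285ak-5p and bta-miR-2285bh, with identical values. The authors report both as found on forage only and as unique to single animals. Leaving out 1 replicate number at a time gave 0 to 2 called entries. It gave a log2 fold change of bta-miR-223 from -0.13 to 0.023, a log2 difference of bta-miR-223 to bta-miR-150 from -0.073 to 0.031 and of bta-miR-223 to both miR-142 arms from -0.064 to 0.046, all reversed without replicate 2. With HG replicate 2 alone left out and no replicate block, the last 2 were 0.0046 and 0.015, and the fold change kept its direction at -0.014. The cause was not tested. The fit without the cow block, the unpaired counterpart, called 0 entries (7 at an unadjusted p under 0.05), and dropping the pairing changed no call. Counting libraries within counting noise as 1 (chosen after seeing the data) gave sums of 2.18% on forage and 1.9975% on HG. Adjusted p-values of the 4 fold changes were 0.678 to 0.999 over all alternatives. Depth limits bta-miR-142-3p most, at 290 to 569 reads per library, and ratio tests over 4 cows cannot pass 0.05.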
